A study of Mus musculus with 6 samples.

Results

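Genes of sterol and fatty acid synthesis were followed in macrophages grown from 2 monocyte subsets of mouse bone marrow. The set held 35 genes, taken by symbol from the 24411 genes listed in each library, and covered the mevalonate steps (7 genes), the later sterol steps (11), control of the pathway (4), cholesterol transport and storage (4) and fatty acid synthesis (9). Monocytes of C57BL/6 mice were sorted by flow cytometry as LFA1-lo Itgam-lo or LFA1-hi Itgam-hi and cultured until day 7, with 10% serum, in the presence of M-CSF (20 ng/ml), the growth factor that turns monocytes into macrophages, and with new medium on day 4. Each subset gave 3 RNA sequencing libraries, called LFA1-lo and LFA1-hi here after the sort that preceded culture. No allele, transgene or drug distinguished the groups, and both received the same medium. The labels give no age for the mice and do not say if the 3 libraries of a subset stem from different animals or dishes. The p-values therefore reflect the spread among these samples only, which may be technical.

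Total expected counts ran from 15.2 to 17.6 M per library. Levels are given as CPM (counts per M counts, after the scaling factors of the fit), where 3 counts amount to 0.168 to 0.191 CPM. One library, LFA1-lo replicate 2, varied most within its group, and results are given with and without it. The macrophage label was checked on 12 markers, all of which were measured. They were highest as a sum in LFA1-lo (19447 to 24683 CPM, against 15168 to 17533 CPM in LFA1-hi). Lyz2 alone made up 10330 to 15015 CPM in LFA1-lo and 8848 to 10746 CPM in LFA1-hi. Of the 12 markers 7 fell and 1 rose in LFA1-hi, where 15.6% of all tested genes fell and 16.1% rose. Itgam, a marker of the sort, did not pass the edgeR test after culture (log2 fold change −0.06, LFA1-hi minus LFA1-lo, adjusted p = 0.646). Summed markers of dendritic cells (8 genes, at most 1.53 CPM), lymphocytes (8, at most 3.88 CPM) and stromal or fat cells (8, at most 1.79 CPM) were near 0 in each library. Flt3 and Ccr7, Cd3e, Cd3d and Ncr1, and Lum, Adipoq and Plin1 had no count in any of them. Granulocyte markers (9 genes) summed to 11.9 to 42.0 CPM in LFA1-lo and 3.97 to 6.21 CPM in LFA1-hi, with 3 of 4 tested members falling, and 20 genes of cell division to 1072 to 1568 CPM in LFA1-lo and 3374 to 3704 CPM in LFA1-hi, with 20 of 20 rising. The part of these markers in the results below was not tested. In such bulk samples, fewer cells of a type and less RNA per cell cannot be told apart.

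Cholesterol is built from acetyl-CoA through mevalonate, farnesyl diphosphate, squalene and lanosterol. Its genes share a control circuit in which the precursor protein of Srebf2 is escorted by Scap from the endoplasmic reticulum to the Golgi, cut there and sent to the nucleus to switch the pathway on, while sterols let the Insig proteins hold Scap back. Fatty acids are built from the same acetyl-CoA by Acaca and Fasn, then lengthened by Elovl enzymes and given double bonds by Scd and Fads enzymes. Macrophages also take up cholesterol with the debris they engulf, and the liver X receptors (LXR), activated by oxidised sterols and by intermediates of the pathway, switch on its export.

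In LFA1-hi macrophages fatty acid genes changed in both directions, while most sterol genes did not pass the test. Acaca, Fasn and the elongases Elovl5 and Elovl6 rose, the desaturases Fads1 and Fads2 fell, and of the sterol enzymes Ebp and Dhcr7 rose. Of the 35 genes, 34 passed the filter on low counts, the exception being Scd1. At an edgeR adjusted p under 0.05, 31.7% of all 11692 tested genes were called. Of the 34 members, 6 (17.6%) rose and 2 (5.88%) fell, where 16.1% of all tested genes rose and 15.6% fell, so the share that rose was near the background. The median log2 fold change (LFA1-hi minus LFA1-lo) of the 34 was −0.01, against −0.00 for all tested genes. Without LFA1-lo replicate 2, 12 of 34 members (35.3%) fell and 7 (20.6%) rose, where 42.3% of 11893 tested genes were called, 20.5% falling and 21.8% rising. The 10 falls that this added were all of sterol, mevalonate, control or transport genes. With all 6 libraries, 7 of the 35 members were higher in every LFA1-hi than in every LFA1-lo library and 5 were lower, where this held for 24.8% and 22.9% of the tested genes. The 5 include Scd1, which was not among the tested genes. Levels spanned a wide range on the deposited TPM scale (transcript abundance corrected for length), from 481 TPM for Npc2, 221 TPM for Soat1 and 157 TPM for Npc1 to 4.35 TPM for Tm7sf2, 3.34 TPM for Elovl6 and 0.157 TPM for Scd1, as means over the 6 libraries.

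The start of fatty acid synthesis was higher in LFA1-hi. Acaca, the acetyl-CoA carboxylase that makes malonyl-CoA (GRCm38 chromosome 11, 84129635 to 84401651), stood at 57.7, 52.9 and 60.1 CPM in the LFA1-lo libraries (replicates 1 to 3, an order kept throughout) and at 71.9, 79.1 and 76.0 CPM in the LFA1-hi libraries. The groups did not overlap, and Acaca rose 1.33-fold (log2 fold change 0.41, SE 0.09, edgeR adjusted p = 0.00691). Fasn, the synthase that joins malonyl units into palmitate (chromosome 11, 120805958 to 120825166), was at 135, 94.1 and 142 CPM in LFA1-lo and 171, 187 and 189 CPM in LFA1-hi. Its lowest library was LFA1-lo replicate 2, yet all LFA1-hi libraries lay above all LFA1-lo libraries, and Fasn rose 1.48-fold (0.56, SE 0.14, adjusted p = 0.0167). The log2 fold change was 0.40 with that library left out (adjusted p = 0.00039), but without LFA1-hi replicate 2 (0.55) or 3 (0.54) it missed the threshold (adjusted p = 0.0654 and 0.0619).

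Of the 3 elongases 2 rose with them. Elovl6, which lengthens palmitate to stearate (chromosome 3, 129532386 to 129638495), was at 7.40, 6.13 and 8.28 CPM in LFA1-lo and 14.5, 14.6 and 13.4 CPM in LFA1-hi, a 1.95-fold rise without overlap (0.96, SE 0.17, edgeR adjusted p = 0.00244). Elovl5, which lengthens polyunsaturated fatty acids (chromosome 9, 77917365 to 77984519), was at 63.9, 66.3 and 63.0 CPM against 85.7, 84.6 and 79.5 CPM (0.37, SE 0.08, adjusted p = 0.00702). Elovl1, an elongase of very long saturated chains (chromosome 4, 118426874 to 118432953), was at 111, 114 and 111 CPM against 131, 123 and 130.1 CPM. Its groups did not overlap either, but it did not pass (0.19, SE 0.07, adjusted p = 0.0731), except without LFA1-lo replicate 2 (0.21, adjusted p = 0.028) and with library totals alone as scaling (0.26, adjusted p = 0.023). The span of Elovl1 shares 53 bases with the cell division gene Cdc20, which rose (1.33), and the sources used here do not state if counting used the strand.

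The desaturases of polyunsaturated fatty acids went the other way. Fads2, the delta-6 desaturase that starts their synthesis (chromosome 19, 10062765 to 10101503), was at 11.2, 9.38 and 13.6 CPM in LFA1-lo and at 2.63, 2.67 and 1.57 CPM in LFA1-hi. Every LFA1-hi library was well below every LFA1-lo library, and the log2 fold change of −2.32 (SE 0.26, edgeR adjusted p = 0.000279), a level 0.201 times that of LFA1-lo, had the largest size of the 34 genes. Fads1, the delta-5 desaturase that acts after it and after Elovl5 (chromosome 19, 10182877 to 10196874), was at 166, 173 and 160.5 CPM against 114, 108 and 109 CPM. It too fell without overlap (−0.59, SE 0.07, adjusted p = 0.000461). LFA1-lo replicate 2 was not low for Fads1, and without that library Fads1 stood at −0.56 and Fads2 at −2.44. The calls of Acaca, Elovl5, Elovl6, Fads1 and Fads2 were kept in all 16 alternative fits, with adjusted p of at most 0.0468 for Acaca and 0.00691 for Fads1.

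**Figure D1:**
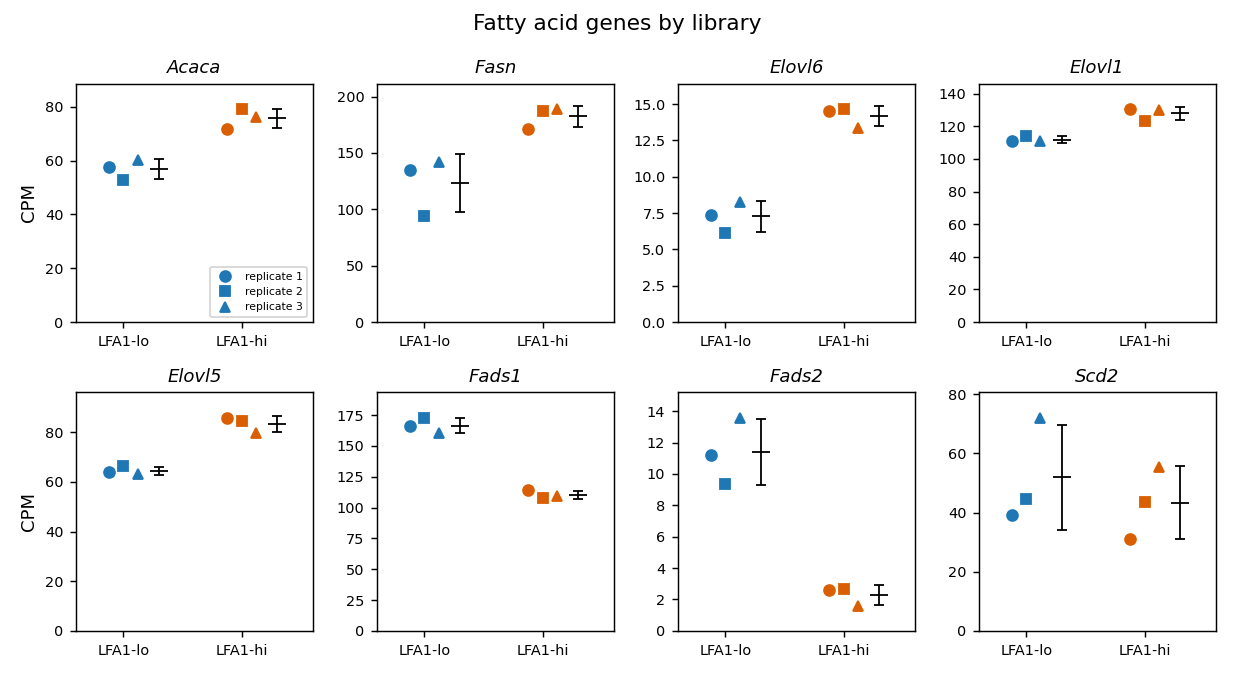
CPM (y axis, from 0, a scale for each panel) of 8 fatty acid genes in the 3 LFA1-lo (blue) and 3 LFA1-hi (orange) libraries, with a marker shape for each replicate number and black bars for mean ± SD (n = 3). Acaca, Fasn and the 3 elongases lie higher in LFA1-hi and Fads1 and Fads2 lower, each without overlap, whereas the groups overlap for Scd2.

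Fads1 and Fads2 lie side by side with another desaturase gene, Fads3, in 156.0 kb of chromosome 19 (10040855 to 10196874), so the genes around them were examined, a choice made after values were seen. Fads3, at 5.91, 7.59 and 4.23 CPM in LFA1-lo and 2.52, 1.97 and 4.09 CPM in LFA1-hi, fell as well (−1.04, SE 0.34, edgeR adjusted p = 0.0423), with LFA1-lo replicate 3 only just above LFA1-hi replicate 3, and missed the threshold without LFA1-lo replicate 2 (−0.82, adjusted p = 0.0678). On the Fads3 side Rab3il1 fell (−0.50, adjusted p = 0.0024). On the Fads1 side the next gene, Fen1, a nuclease of DNA replication, rose from 33.2, 41.4 and 41.0 to 84.2, 79.4 and 82.8 CPM (1.09, SE 0.10, adjusted p = 0.000105). Beyond it Tmem258 (−0.13, adjusted p = 0.364) and Myrf (−0.48, adjusted p = 0.409) did not pass, and Dagla, a lipase that makes an endocannabinoid, fell (−0.45, adjusted p = 0.0153), except without LFA1-hi replicate 1 or 2 (0.065 and 0.0661).

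The stearoyl-CoA desaturases, which put the first double bond into saturated chains, did not pass. Scd2 was the expressed member, at 39.1, 44.6 and 72.0 CPM in LFA1-lo and 31.0, 43.6 and 55.5 CPM in LFA1-hi. These ranges overlapped widely, and the log2 fold change was −0.26 with a 95% interval of −0.92 to 0.40 (edgeR adjusted p = 0.518), which holds both no change and a fall beyond 1.5-fold. Scd1 had 7, 12 and 9 counts in LFA1-lo and 6, 0 and 6 in LFA1-hi and was not tested.

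Of the 7 mevalonate genes none passed the edgeR test with all 6 libraries (1 had an unadjusted p under 0.05, and 1 passed in DESeq2). Of all 11692 tested genes, 4987 had an unadjusted p under 0.05 in the edgeR test. The condensing enzyme gene Hmgcs1, which makes HMG-CoA (chromosome 13, 119690351 to 119708260), was at 143, 119.6 and 198 CPM in LFA1-lo and 99.6, 112 and 118 CPM in LFA1-hi. Each LFA1-hi library was below each LFA1-lo library, by the least against LFA1-lo replicate 2 (log2 fold change −0.49, SE 0.17, adjusted p = 0.0638), and Hmgcs1 fell without that replicate (−0.64, SE 0.14, adjusted p = 0.00922). Acat2, the thiolase that makes acetoacetyl-CoA for this path, had 11.6, 7.34 and 20.6 CPM in LFA1-lo and 17.7, 21.5 and 24.1 CPM in LFA1-hi (0.67, SE 0.33, adjusted p = 0.165), and its rise passed the test when LFA1-lo replicate 3 was left out (1.15, adjusted p = 0.00578). Fdps, the farnesyl diphosphate synthase, was at 64.6, 42.1 and 72.7 CPM against 69.0, 76.5 and 76.2 CPM (0.31, adjusted p = 0.235). The mevalonate kinase Mvk (0.17), phosphomevalonate kinase Pmvk (−0.01), decarboxylase Mvd (0.05) and isomerase Idi1 (0.03) had adjusted p of 0.496 to 0.963, and their values overlapped between the groups.

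Of the 11 genes from squalene to cholesterol 2 (18.2%) rose and none fell with all libraries, where 16.1% of all tested genes rose and 15.6% fell. An unadjusted p under 0.05 was reached by 3 of the 11, and by 4987 of all 11692 tested genes. Dhcr7, the reductase of the last step on one branch (chromosome 7, 143823167 to 143848410), was at 24.4, 14.5 and 28.7 CPM in LFA1-lo and a narrow 35.7, 36.6 and 35.4 CPM in LFA1-hi. It rose without overlap (0.67, SE 0.21, edgeR adjusted p = 0.0421). Ebp, the sterol isomerase (chromosome X, 8185329 to 8193512), rose from 35.2, 36.1 and 37.1 to 46.0, 41.5 and 43.4 CPM (0.27, SE 0.09, adjusted p = 0.0466). Both passed more clearly without LFA1-lo replicate 2 (Dhcr7 0.44, adjusted p = 0.00456, and Ebp 0.27, adjusted p = 0.0333). Dhcr7 was lost without LFA1-lo replicate 1 or any single LFA1-hi library (adjusted p = 0.084 to 0.118), and Ebp without any single library but LFA1-lo replicate 2 (0.0579 to 0.157) and with no filter on low counts (0.0595).

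Without LFA1-lo replicate 2, 5 of these 11 (45.5%) fell, where 20.5% of all tested genes fell. None of the 11 fell in any other alternative fit. That includes the fit without LFA1-lo replicate 3, the highest LFA1-lo library for 9 of the 11. Each had its LFA1-hi libraries below LFA1-lo replicates 1 and 3, and the share of all genes for which this held is not given here. Sc5d, the desaturase just before Dhcr7 on that branch (chromosome 9, 42251592 to 42264300), was at 44.1, 27.6 and 40.3 CPM in LFA1-lo and 27.3, 29.5 and 28.8 CPM in LFA1-hi. LFA1-lo replicate 2 thus lay within the LFA1-hi range, and the log2 fold change went from −0.39 (SE 0.16, edgeR adjusted p = 0.099) to −0.56 (SE 0.10, adjusted p = 0.000373) without it. Cyp51, the lanosterol demethylase, had 105, 81.8 and 116 CPM against 80.7, 88.0 and 88.6 CPM (−0.24, adjusted p = 0.182, and −0.37, adjusted p = 0.00185, without the replicate). Msmo1, a methylsterol oxidase, had 119.8, 92.9 and 120.3 CPM against 87.8, 103 and 93.2 CPM (−0.23, adjusted p = 0.162, and −0.34, adjusted p = 0.00325). In both, LFA1-lo replicate 2 lay among the LFA1-hi libraries.

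The first enzymes of this stretch showed smaller differences. Sqle, the squalene epoxidase, stood at 91.1, 76.7 and 90.5 CPM in LFA1-lo and 72.7, 78.7 and 80.1 CPM in LFA1-hi (−0.16, edgeR adjusted p = 0.235, and −0.24, adjusted p = 0.027, without LFA1-lo replicate 2). Fdft1, the squalene synthase, stood at 41.5, 29.7 and 44.3 CPM against 34.9, 38.1 and 35.2 CPM (−0.10, adjusted p = 0.651, and −0.25, adjusted p = 0.0499). LFA1-lo replicate 2 was the lowest of the 6 libraries for Fdft1, whose call is at the edge of the threshold. The span of Fdft1 shares 774 bases with the far more abundant cathepsin gene Ctsb, which fell (−0.25). Lss (0.03), the cyclase that closes the sterol rings, the reductases Tm7sf2 (0.19) and Hsd17b7 (0.14) and the dehydrogenase Nsdhl (−0.13) passed in neither fit.

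LFA1-lo replicate 2 was low for most of these genes. It was the lowest LFA1-lo library for 16 of the 18 mevalonate and sterol genes (7 of 7 and 9 of 11), where it was the lowest for 38.2% of all tested genes. Its level divided by the mean of LFA1-lo replicates 1 and 3 had a median of 0.619 over the mevalonate genes, 0.740 over the sterol genes, 0.898 over the fatty acid genes and 0.999 over all tested genes. The lowest of these values were those of Mvd (0.402), Acat2 (0.455) and Dhcr7 (0.547). LFA1-lo replicate 3 was the highest LFA1-lo library for 16 of the 18. Summed over the 18 genes, the LFA1-lo libraries stood at 869, 675 and 1008 CPM and the LFA1-hi libraries at 754, 832 and 826 CPM, so the LFA1-hi sums lay inside the LFA1-lo range. The summed cell division genes had the same order within LFA1-lo (1191, 1072 and 1568 CPM) and the summed LXR targets the reverse order (3432, 4358 and 2946 CPM). Not every gene followed these sums. Apoe made up much of the LXR sum (2126, 2765 and 1637 CPM), and Mylip, Arl4c, Nr1h2 and Smpdl3a were lowest in LFA1-lo replicate 2 within LFA1-lo. Mcm2, Mcm3, Mcm4, Mcm5 and Tyms of the cell division genes were highest there. The part of either list was not tested.

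**Figure D2:**
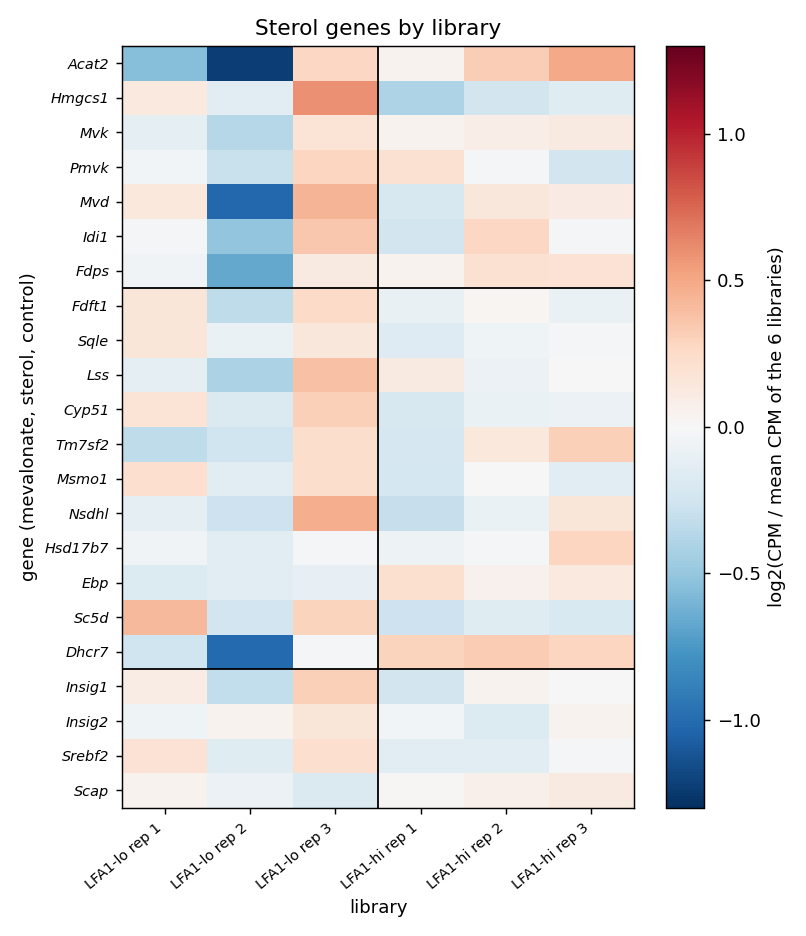
Level of the 22 mevalonate, sterol and control genes (rows) in each library (columns), as log2 of CPM over the mean CPM of the 6 libraries, from low (blue) to high (red). LFA1-lo replicate 2 is blue for most mevalonate and sterol genes and LFA1-lo replicate 3 is red for most, while Dhcr7 and Ebp are high in all 3 LFA1-hi libraries.

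Promoters are shown for 4 genes on which these comparisons turn, Hmgcs1 and Sc5d, which fell without LFA1-lo replicate 2, and Ebp and Fasn, which rose. They are the 150 bases before the annotated start, 5′ to 3′ on the strand of the gene, from RefSeq on GRCm38.p6, chosen from the 7 members with a single listed start and no GENCODE exon in that stretch. Capitals mark the letters TCACNCCAC, a core of the sterol regulatory element bound by the Srebf proteins, CCAAT, the box of the cofactor NF-Y, or GGGCGG, the GC box of Sp1, on either strand.
Hmgcs1, chr13:119690201-119690350, plus strand: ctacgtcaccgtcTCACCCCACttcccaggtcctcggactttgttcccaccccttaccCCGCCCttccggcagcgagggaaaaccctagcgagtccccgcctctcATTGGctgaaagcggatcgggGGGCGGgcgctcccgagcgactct
Sc5d, chr9:42264301-42264450, minus strand: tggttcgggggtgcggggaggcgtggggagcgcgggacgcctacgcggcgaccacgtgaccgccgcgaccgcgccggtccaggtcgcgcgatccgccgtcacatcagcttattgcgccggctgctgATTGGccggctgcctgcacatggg
Ebp, chrX:8193513-8193662, minus strand: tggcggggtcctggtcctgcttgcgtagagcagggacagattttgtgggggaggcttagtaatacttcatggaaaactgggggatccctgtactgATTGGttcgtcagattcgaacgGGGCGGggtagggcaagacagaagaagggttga
Fasn, chr11:120824548-120824697, minus strand: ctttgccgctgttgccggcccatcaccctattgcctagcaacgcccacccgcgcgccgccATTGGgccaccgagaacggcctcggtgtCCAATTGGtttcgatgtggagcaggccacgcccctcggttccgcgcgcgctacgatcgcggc
Hmgcs1 holds the sterol element 137 to 129 bases before its start, with a CCAAT box at 45 to 41 and GC boxes at 92 to 87 and 24 to 19. Sc5d holds a CCAAT box at 24 to 20, and Ebp one at 55 to 51 with a GC box at 33 to 28. Fasn, whose listed start lies inside the span given above, holds 3 CCAAT boxes, of which those at 62 to 58 and 59 to 55 overlap on opposite strands. Over the full windows of 300 bases (250 before to 50 after the start), 27 of the 35 members had an entry, with 34 windows in all. TCACNCCAC was in 1 of the 34 (2.94%) and in 1.24% of all 32851 windows, CCAAT in 22 (64.7%, against 37.4%) and GGGCGG in 26 (76.5%, against 35.7%). The 32851 windows belong to 27025 genes, expressed here or not, whereas 34 of the 35 members passed the filter on low counts. The shares are therefore not of like sets. These are matches of letters and were not tested as sites. Of the members called with all libraries, Fasn, Elovl5, Dhcr7 and Ebp, which rose, held CCAAT in the full windows. Acaca and Elovl6, which rose, and Fads2, which fell, did not, and Fads1 had no entry.

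Within a library, the ratio of 2 enzymes does not depend on a shift common to both, so 3 ratios of TPM were compared, chosen after values were seen and therefore given without a test (an exact permutation test of 3 against 3 libraries cannot go below 0.1). The ratio of Dhcr7 to Sc5d was 0.432, 0.410 and 0.556 in LFA1-lo and 1.02, 0.969 and 0.963 in LFA1-hi, where the means (n = 3) were 0.466 ± 0.0788 and 0.985 ± 0.0338 (SD). LFA1-lo replicate 2, low for both genes, sat with its group here, and the LFA1-hi mean was 2.11 times the LFA1-lo mean. The ratio of Hmgcs1 to Fdps was 0.692, 0.906 and 0.853 in LFA1-lo and 0.452, 0.459 and 0.483 in LFA1-hi. The ratio of Fads1 to Elovl5 was 2.06, 2.06 and 2.01 in LFA1-lo and 1.05, 1.01 and 1.09 in LFA1-hi. All 3 ratios separated the groups by more than the spread within them. Each pairs a gene with a positive and a gene with a negative log2 fold change, so the choice itself favoured such a separation. The share of gene pairs that separate the groups is not given here. With any single library left out, the LFA1-hi mean was 1.995 to 2.34 times the LFA1-lo mean for Dhcr7 to Sc5d, 0.529 to 0.602 times for Hmgcs1 to Fdps and 0.504 to 0.524 times for Fads1 to Elovl5.

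**Figure D3:**
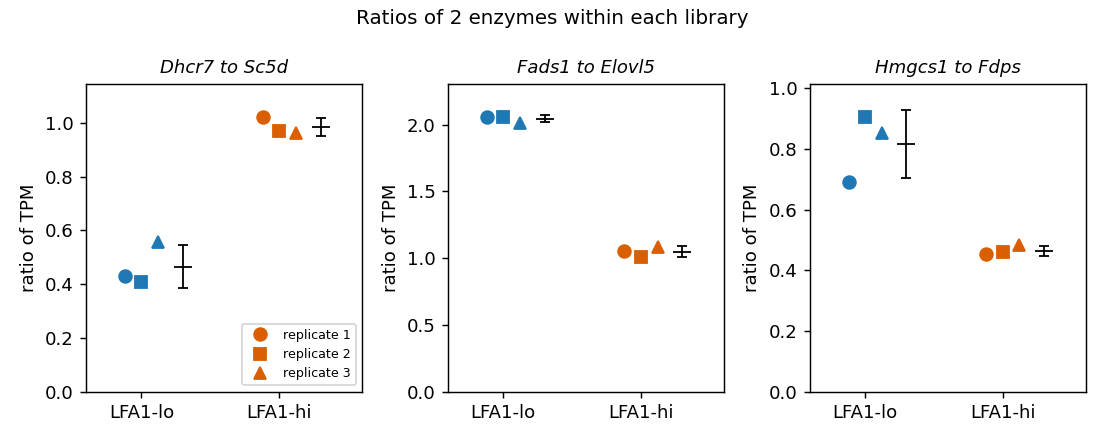
Ratio of the TPM of 2 enzymes (y axis, from 0) in each LFA1-lo (blue) and LFA1-hi (orange) library, with marker shapes for replicate numbers and black bars for mean ± SD (n = 3). The groups do not overlap in any panel, and Fads1 to Elovl5 goes from 2.04 ± 0.0258 to 1.05 ± 0.0394. The pairs were chosen after values were seen.

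Of the 4 control genes none passed with all libraries or in DESeq2. None had an unadjusted p under 0.05 in the edgeR test, where 4987 of all 11692 tested genes did. Srebf2, the master regulator of the sterol genes (chromosome 15, 82147269 to 82205379), was at 219.9, 172 and 223 CPM in LFA1-lo and 174, 175 and 190.1 CPM in LFA1-hi. LFA1-lo replicate 2 was the lowest of the 6 libraries, and Srebf2 fell without it (−0.19, edgeR adjusted p = 0.205, became −0.30, SE 0.07, adjusted p = 0.00214). Insig1, itself a target of Srebf2 that feeds back on it, was at 106, 79.6 and 123 CPM against 84.1, 102 and 99.8 CPM and likewise passed only without that replicate (−0.27, adjusted p = 0.0395). Insig2 (−0.11, 95% interval −0.38 to 0.16) and Scap (0.14, −0.07 to 0.35) passed in neither fit, and these intervals lie within 1.5-fold.

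None of the 4 transport and storage genes passed the edgeR test with all libraries, where 31.7% of all tested genes were called. Without LFA1-lo replicate 2, 2 of the 4 fell, where 20.5% of all tested genes fell. Npc2, the soluble carrier of cholesterol in the lysosome (chromosome 12, 84754559 to 84773112), was at 852, 879.9 and 873 CPM in LFA1-lo and 781, 743 and 778 CPM in LFA1-hi. The groups did not overlap, LFA1-lo replicate 2 was here the highest, and the difference missed the threshold (−0.18, SE 0.07, edgeR adjusted p = 0.077) but passed in DESeq2 (adjusted p = 0.0323) and without that replicate (−0.17, adjusted p = 0.0356). Its membrane partner Npc1 was at 474, 419 and 477 CPM against 415, 418 and 429 CPM (−0.12, adjusted p = 0.274, and −0.18, adjusted p = 0.0271, without the replicate). The span of Npc1 overlaps that of 3110002H16Rik by 8982 bases. Soat1, which esterifies cholesterol for storage, was at 565, 541 and 598 CPM against 534, 561 and 586 CPM, with a 95% interval of −0.19 to 0.15 for its log2 fold change. Stard4, a cytosolic sterol carrier, was at 33.5, 27.3 and 46.9 CPM against 32.6, 38.8 and 36.7 CPM (0.00, SE 0.18, adjusted p = 0.992).

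**Figure D4:**
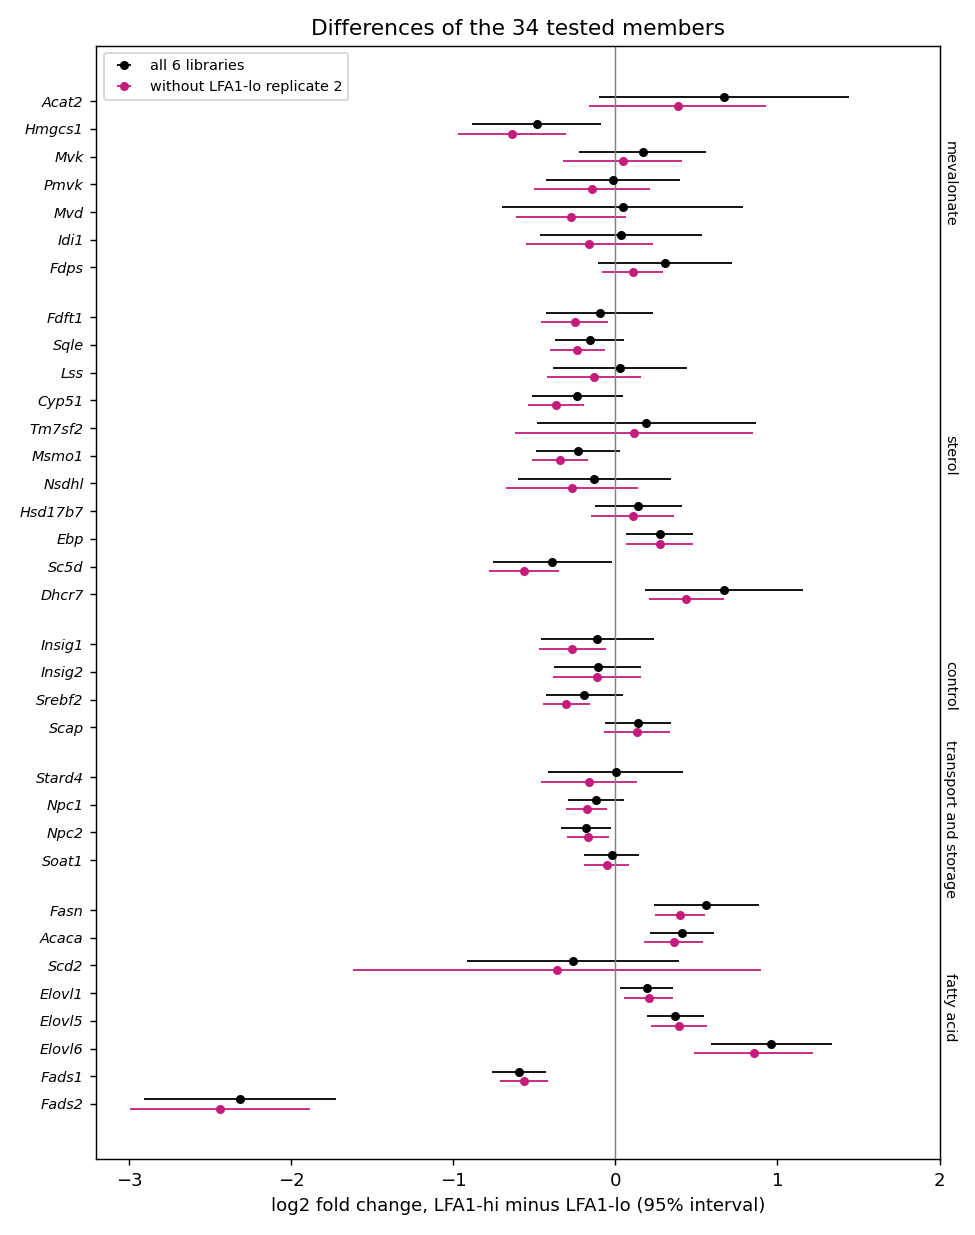
Log2 fold change (x axis, LFA1-hi minus LFA1-lo, with 95% intervals) of the 34 tested members, grouped by role, with all 6 libraries (black) and without LFA1-lo replicate 2 (pink). Fads2 at −2.32 and Elovl6 at 0.96 mark the ends, and most mevalonate and sterol genes move left and gain narrower intervals when the replicate is left out.

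Other genes of these paths were taken from a separate list of 34, of which 30 were tested. Of these 6 rose and 6 fell, or 20% each way, near the 16.1% and 15.6% of all tested genes. Without LFA1-lo replicate 2, 9 rose and 9 fell (30% each way, against 21.8% and 20.5%). Lbr, a sterol reductase that is also a receptor of the nuclear lamina, had the largest rise, from 67.3, 48.8 and 74.3 to 122, 128 and 124 CPM (0.97, SE 0.14, edgeR adjusted p = 0.00101). Acsl5, a fatty acyl-CoA synthetase (0.67, adjusted p = 0.000353), Hsd17b12, the ketoreductase of the elongation cycle (0.54, adjusted p = 0.00298), and Osbpl1a, an oxysterol-binding protein (0.43, adjusted p = 0.0189), also rose. Besides Fads3, the larger falls were of Acsl3, another acyl-CoA synthetase, from 33.2, 23.9 and 33.2 to 14.3, 16.6 and 17.1 CPM (−0.92, SE 0.16, adjusted p = 0.00224), of Me1, an enzyme that supplies NADPH (−0.49, adjusted p = 0.0122), and of Lpcat3, which puts polyunsaturated chains into phospholipids (−0.41, adjusted p = 0.0266). The smaller falls were of Mbtps1, the protease that makes the first cut in the Srebf2 precursor (−0.32, adjusted p = 0.0257), and of Lipa, the lysosomal lipase that frees cholesterol from its esters (−0.29, adjusted p = 0.0352). The smaller rises were of Hacd2 (0.41, adjusted p = 0.0182) and Acly (0.24, adjusted p = 0.0384). Over the alternative fits, adjusted p reached 0.109 for Mbtps1, 0.123 for Lipa, 0.0651 for Hacd2 and 0.132 for Acly, so none of these calls was kept throughout. The calls of Lbr, Acsl5, Hsd17b12 and Acsl3 were kept in all 16 alternative fits, those of Osbpl1a and Me1 were lost without LFA1-hi replicate 2 or 3 (adjusted p = 0.0616 to 0.0778), and that of Lpcat3 without any single library but LFA1-lo replicate 2 (0.0652 to 0.0984) and with library totals alone as scaling (0.062). Osbpl1a was also lost in limma-trend on either TPM scale (0.0519 and 0.051). Fads3 was lost without any single library but the third of either group (0.0678 to 0.148) and with the replicate block (0.0787). Of 9 LXR targets and receptors 7 fell and none rose (median −0.77). The cholesterol exporter Abca1 was at 378, 491 and 399 CPM in LFA1-lo and 78.3, 84.8 and 94.4 CPM in LFA1-hi (−2.30, adjusted p = 9.81e-06), and Abcg1 at 138, 226 and 132 CPM against 44.9, 58.3 and 65.1 CPM (−1.56, adjusted p = 0.00265). Pltp, a phospholipid transfer protein, was at 317, 539 and 264 CPM against 25.8, 17.3 and 29.3 CPM (−3.95, adjusted p = 0.000243), and Apoe, the apolipoprotein that carries exported cholesterol, at 2126, 2765 and 1637 CPM against 1190.5, 1167 and 1078 CPM (−0.93, adjusted p = 0.00453). In all 4 genes LFA1-lo replicate 2, low for most sterol genes, was the highest of the 6 libraries, as it was for Nr1h3. For the other genes of this list, Mylip (30.2 CPM), Arl4c (117 CPM), Nr1h2 (64.4 CPM) and Smpdl3a (104 CPM), it was the lowest LFA1-lo library.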

How the data were processed

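The 6 RNA libraries, 3 for each sorted subset, were analysed. Per the submitters' processing notes, bcl2fastq, Trim Galore and RSEM were used with GRCm38, and the sources used here state neither versions nor the annotation. The authors deposited gene-level expected counts (estimated reads or fragments, not normalized) and TPM values (scaled by effective length and library by RSEM), per the file headers. Expected counts were rounded (5.53% to 6.06% were not whole), filtered with filterByExpr (11692 genes), scaled by TMM and tested in edgeR 4.0.16 (R 4.3.3) by its quasi-likelihood test with the robust option. P-values were adjusted after Benjamini and Hochberg across every tested gene, and calls were made under 0.05. CPM use the TMM-scaled library sizes. SE were derived from the log2 fold change and the F statistic of the quasi-likelihood test, and 95% intervals from these SE and the t distribution. Coordinates are RefSeq's on GRCm38, and all 35 genes matched by transcript accession. Values by library are given for each member that passed with all libraries or without LFA1-lo replicate 2, and of related genes and LXR targets up to 4 each way with the largest changes. Members and lists were chosen with earlier results of these data known. Genes named outside these rules were chosen after their values were seen. The 16 alternative fits were other scalings, no filter, unrounded counts, a fit that is not robust, a replicate block, DESeq2 1.42.0, limma-trend (limma 3.58.1) on log2(TPM + 0.1) and log2(TPM + 1), and each library left out, and besides these a threshold of 0.01 was tried.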

Additional observations from a re-analysis of the deposited data

How the results depend on the processing

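Over the 16 alternative fits none of the 8 members called with all libraries changed sign. Fdft1 and Insig1, called without LFA1-lo replicate 2, had a log2 fold change just above 0 without LFA1-lo replicate 3 (0.02 and 0.04). With all libraries 6 members rose and 2 fell. With the replicate block 5 rose and 3 fell, Hmgcs1 (−0.46, adjusted p = 0.0342) being added and Ebp (adjusted p = 0.0911) lost. Deviations from the group means of same-numbered libraries had Pearson correlations across genes of 0.0370, 0.0182 and −0.0718. With so few libraries, these values cannot decide if same-numbered libraries share an animal or dish. DESeq2 gave 4 falling members, adding Hmgcs1 and Npc2. At a threshold of 0.01, 3 members rose, 4 related genes passed and 1007 genes rose and 1017 fell in all. Over the fits without a single library, rising members numbered 3 to 7, falling members 2 to 12, related genes 4 to 18, and all genes 1169 to 2589 rising and 1099 to 2443 falling, the highest values each being those without LFA1-lo replicate 2. Related genes numbered 12 with all libraries, and 8, 6, 4 and 5 without LFA1-lo replicate 1 and LFA1-hi replicates 1, 2 and 3, while 3 members rose without LFA1-hi replicate 2 or 3. Library totals alone as scaling gave 2294 rising and 1471 falling genes (7 and 2 members), against 1883 and 1822. On limma-trend Dhcr7 missed the threshold (adjusted p = 0.0601 and 0.0581) and Npc2 passed (0.0475 and 0.0479). The cause of these shifts was not tested. The counts of Scd1, at most 12 in a library, are too few for a comparison.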
